A study of Mus musculus with 6 samples.

Results

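Interleukins reach T cells through receptors built from a few shared chains, and the RNA of 10 such chains was followed here in mouse CD8+ T cells grown with or without AOA. AOA (aminooxyacetic acid) blocks enzymes that need PLP, the active form of vitamin B6. The genes were Il2ra, Il2rb, Il2rg, Il15ra, Il7r, Il4ra, Il21r, Il12rb1, Il12rb2 and Il18r1. They were chosen by symbol, 1 row each in the count table, so that all 10 of 10 were found among 11922 genes, and all 10 passed the filter on low counts that left 11759 genes to test. CD8+ T cells came from spleens of C57BL6/J mice by magnetic sorting and were activated for 72 h with beads carrying antibodies to CD3 and CD28. They then grew for a further 4 days. Both groups received recombinant human interleukin-2 at 100 units per ml. One group had water as vehicle and the other 0.25 mM AOA, and RNA was taken on day 7. The labels name a mouse donor, 1, 2 or 3, for each library, and the same donor numbers stand in both groups, so that each mouse stands for 1 vehicle and 1 AOA library, with 3 of each. Interleukin-2 is the only interleukin that the labels name as added to the cultures.

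Interleukin-2 binds a receptor of an alpha chain (Il2ra, CD25), a beta chain (Il2rb) and the common gamma chain (Il2rg), and interleukin-15 signals through the same beta and gamma chains while Il15ra holds it. The receptors for interleukin-7, interleukin-4 and interleukin-21 each pair their own chain with the common gamma chain, and all of them signal through JAK kinases and STAT transcription factors. Interleukin-7 receptor keeps naive and memory T cells alive, while the interleukin-12 receptor (Il12rb1 with Il12rb2) and the interleukin-18 receptor (Il18r1 with Il18rap) let activated T cells answer signals that raise interferon gamma.

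Values are given as CPM, the usual per-library scaling of read counts, here on TMM-normalised library sizes. Groups were compared by the edgeR quasi-likelihood test across all tested genes, without pairing the libraries by mouse. Genes are called where the adjusted p is under 0.05, and every log2 fold change is AOA relative to vehicle. Total counts ran from 12881962 to 21997078 per library, and at least 181 counts stood behind every value of a receptor chain. CD8 T cell markers were abundant in both groups, as the label has it, with 785 ± 130 CPM of Cd8a for vehicle and 1608 ± 134 CPM for AOA (SD, n = 3). Cd8a, Cd8b1 and Thy1 were called higher, Cd2 was called lower (-0.61), and Cd3d, Cd3e, Cd3g and Cd247 were not called, at log2 fold changes from -0.31 to -0.13. The median over the 8 genes was -0.14, and their summed level ranged from 5010 to 5710 CPM with vehicle and from 6650 to 7450 CPM with AOA. Markers of CD4 and regulatory T cells summed to between 275 and 314 CPM with vehicle and between 66.7 and 126 CPM with AOA, with 4 of 5 called lower, Cd4 among them (log2 fold change -3.08). The 4 tested myeloid and dendritic cell markers were all called lower by edgeR (Fcer1g not by limma, or without any single AOA library), and the list summed to between 74.0 and 156 CPM with vehicle and between 4.34 and 8.77 CPM with AOA, while Clec9a, Flt3, Zbtb46, Csf1r and Adgre1 had no row. In the same list Lyz2 and Cd14 were too low to test. Lyz2 had a mean of 0.106 CPM with vehicle and 0.513 CPM with AOA, and Cd14 of 0.772 and 0.0176 CPM. Of 3 tested NK cell markers, Klrb1c and Klrk1 were called lower (log2 fold changes -3.02 and -2.62). Nkg7, which CD8 T cells also express, was not called (462 CPM with vehicle, 655 CPM with AOA, 0.50) and made up most of the list, which summed to between 514 and 860 CPM with vehicle and between 575 and 834 CPM with AOA. The 5 tested B cell markers summed to between 13.9 and 18.4 CPM with vehicle and between 23.1 and 30.9 CPM with AOA, with Cd79b higher and Cd22 lower, and no erythroid or platelet marker had a row. As with Nkg7, a marker of these lists need not be limited to the cell type it is listed for. The part of these cells or genes in the receptor results was not tested, and in RNA of whole cultures fewer cells of a type and less RNA per cell cannot be told apart.

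With AOA, 4 of the 10 receptor chains fell and 1 rose. Il7r fell most, followed by Il12rb2, Il18r1 and Il12rb1, and Il21r rose. Il2ra, Il2rb, Il2rg, Il15ra and Il4ra were not called. AOA changed a large part of the transcriptome, since 53.0% of all tested genes were called, 26.2% higher and 26.8% lower, so 5 called of 10 is near the background share. The median log2 fold change of the 10 chains was -0.53, beside -0.02 for all tested genes.

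**Figure D1:**
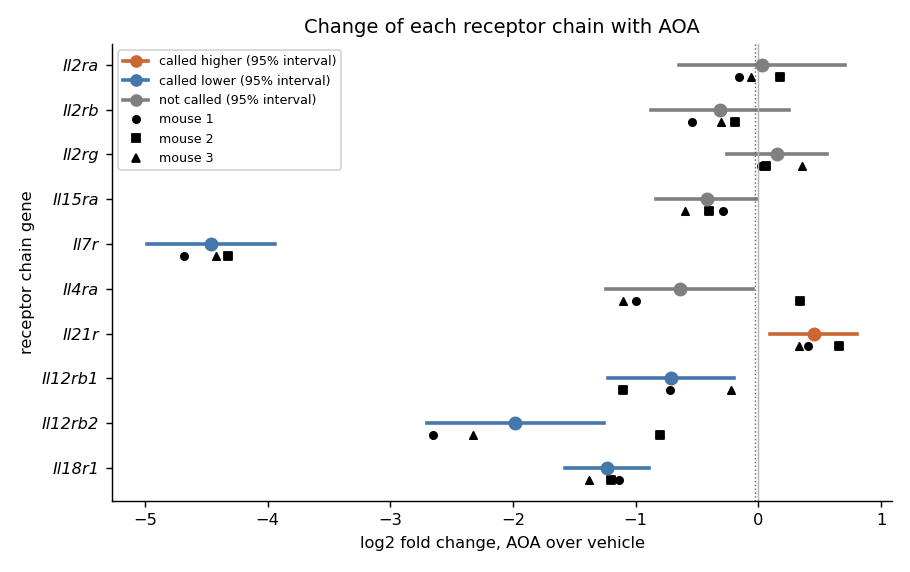
Log2 fold change (AOA over vehicle, x axis) of each receptor chain (y axis), as a point with its 95% interval coloured by call, and below it the log2 ratio of CPM within each of the 3 mice; the dotted line marks the median of all tested genes at -0.02. Il7r stands alone near -4.46, and the mice disagree in sign only for Il2ra and Il4ra.

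The chains of the interleukin-2 and interleukin-15 receptors are given first, since interleukin-2 was the cytokine added to every culture. Il2ra (chromosome 2, 11642792 to 11693194, RefSeq coordinates of GRCm38, or mm10, throughout) stood at 535, 897 and 593 CPM in vehicle libraries 1, 2 and 3, and at 479, 1014 and 568 CPM in the AOA libraries. The groups overlapped, with the library of mouse 2 highest in both. On the log2 scale the fitted change was 0.03 (standard error 0.30, 95% interval -0.65 to 0.70, adjusted p = 0.950), and the interval allows changes in either direction. Within mice, Il2ra was lower with AOA in 2 of 3.

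Il2rb (chromosome 15, 78479256 to 78511621), the signalling chain shared by interleukin-2 and interleukin-15, had the highest level per length of the 10 chains with vehicle. Its CPM values were 913, 1356 and 1048 with vehicle and 629, 1189 and 849 with AOA. Every mouse had less with AOA, yet the groups overlapped because mouse 2 was highest in each. The fitted change of -0.32 (standard error 0.25, 95% interval -0.88 to 0.25) was not called, with an adjusted p of 0.314.

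Il2rg (chromosome X, 101264385 to 101268255) encodes the common gamma chain, which the receptors for interleukin-2, 4, 7, 15 and 21 all need. It was at 559, 727 and 604 CPM with vehicle and at 567, 757 and 773 CPM with AOA. The groups overlapped, although each mouse had more with AOA, by a log2 ratio of only 0.02 in mouse 1, 0.06 in mouse 2 and 0.36 in mouse 3. The fitted change was 0.15 (standard error 0.18, 95% interval -0.26 to 0.56, adjusted p = 0.511). In the GENCODE annotation 30.5% of the exonic bases of Il2rg are shared on the same strand with Gm20489, which had no row of its own.

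Il15ra (chromosome 2, 11705172 to 11733985) encodes the chain that holds interleukin-15 with high affinity and lies 12.0 kb from Il2ra. It had the lowest level per length of the 10 chains in both groups and was at 14.9, 13.0 and 13.8 CPM with vehicle and 12.2, 9.83 and 9.13 CPM with AOA. All 3 AOA libraries lay below all 3 vehicle libraries, a property of 62.1% of tested genes in one or the other direction. The fitted change of -0.42 (standard error 0.18) was not called over all genes (adjusted p = 0.0793), and it was called only when AOA replicate 1 was left out (-0.55, adjusted p = 0.0304).

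**Figure D2:**
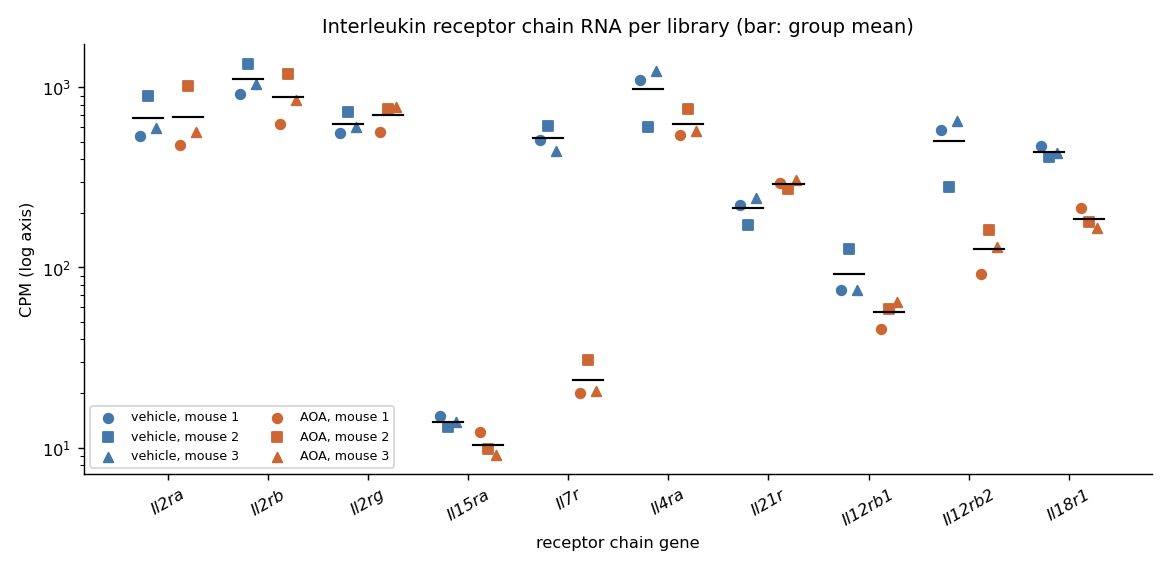
CPM of each receptor chain (x axis) in the 3 vehicle and 3 AOA libraries on a log y axis, with a marker shape for each mouse and a bar at each group mean. Il7r, Il12rb2 and Il18r1 are separated most between groups, and the squares of mouse 2 sit apart from the other vehicle points for Il4ra, Il12rb2 and Il12rb1.

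Il7r (chromosome 15, 9506159 to 9529941) encodes the alpha chain of the interleukin-7 receptor. Its raw counts were 6470, 9680 and 8140 with vehicle and 435, 578 and 409 with AOA, in AOA libraries that were on the whole deeper. As CPM these were 513, 614 and 442 with vehicle against 20.0, 30.5 and 20.6 with AOA. The lowest vehicle library was thus far above the highest AOA library, and the 3 mice had log2 ratios of -4.68, -4.33 and -4.42. The fitted level was 22.1-fold lower with AOA (standard error 0.23 on the log2 scale, 95% interval of the log2 fold change -4.98 to -3.94, adjusted p = 1.12e-05). Ordered from the largest fall, Il7r held place 82 of 11759, and 0.842% of tested genes had a larger change in either direction. The log2 fold change kept its call in all 13 alternative settings, between -4.68 and -4.30.

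Il4ra (chromosome 7, 125552271 to 125579474), which binds interleukin-4 and interleukin-13, and Il21r (chromosome 7, 125603252 to 125634397), which binds interleukin-21, lie 23.8 kb apart. Il4ra was at 1092, 600 and 1238 CPM with vehicle and at 546, 758 and 575 CPM with AOA. Vehicle replicate 2 lay among the AOA libraries, and mouse 2 was the only mouse with more Il4ra in AOA (log2 ratio 0.34, against -1.0 and -1.11 in mice 1 and 3). Over all 6 libraries Il4ra was not called (log2 fold change -0.64, standard error 0.27, adjusted p = 0.0684), whereas without vehicle replicate 2 it was (-0.86, adjusted p = 0.00394). DESeq2 also called it, with an adjusted p of 0.0257, whereas limma (adjusted p = 0.0922) and the replicate block (adjusted p = 0.0950) did not. Without vehicle replicate 3 the change was -0.40 (adjusted p = 0.262). A further 9.51% of its exonic bases are shared with the antisense gene Gm44876, which had no row.

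Il21r rose from 223, 173 and 242 CPM with vehicle to 294, 272 and 305 CPM with AOA. The groups did not overlap, and each mouse had more with AOA, with log2 ratios from 0.33 to 0.65. The fitted rise was 0.45 (standard error 0.16, 95% interval 0.09 to 0.80, adjusted p = 0.0368), and 58.1% of tested genes had a larger change. The call was lost when any single library other than vehicle replicate 3 was left out, with log2 fold changes between 0.36 and 0.51 and adjusted p from 0.0523 without vehicle replicate 2 to 0.114 without AOA replicate 3. The fitted changes of these neighbouring genes thus had opposite signs, and the difference between them was not tested.

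Il12rb2 (chromosome 6, 67285986 to 67376293) encodes the interleukin-12 receptor chain that recruits STAT4. It was at 578, 281 and 650 CPM with vehicle and at 91.8, 161 and 130 CPM with AOA. Vehicle replicate 2 had less than the other vehicle libraries but more than any AOA library. The level fell 3.95-fold (log2 fold change -1.98, standard error 0.32, adjusted p = 9.00e-04), with log2 ratios of -2.65 and -2.33 in mice 1 and 3 and -0.81 in mouse 2. Serbp1, on the opposite strand, shares 40.0% of the exonic bases of Il12rb2 in the GENCODE annotation. Serbp1 itself was higher with AOA, at 845 ± 85.9 CPM against 524 ± 5.65 CPM (SD, n = 3; log2 fold change 0.69, adjusted p = 0.00404), the direction opposite to that of Il12rb2. The strand setting of the counting was not given in the sources used here. Reads of the shared stretch may thus have been counted for either gene or for neither.

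Il12rb1 (chromosome 8, 70808360 to 70823542), the other interleukin-12 receptor chain and also a chain of the interleukin-23 receptor, fell less. It was at 74.8, 126 and 75.4 CPM with vehicle and at 45.3, 58.9 and 64.5 CPM with AOA. Every mouse had less with AOA, and the lowest vehicle library was above the highest AOA library. The fitted change on the log2 scale was -0.71 (standard error 0.23, adjusted p = 0.0250). Vehicle replicate 2, the lowest vehicle library for Il12rb2, was the highest for Il12rb1, and without it the change was -0.38 and not called (adjusted p = 0.0759). The call was also lost without AOA replicate 1 (-0.58, adjusted p = 0.104) or AOA replicate 2 (-0.74, adjusted p = 0.0529).

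A library of each group stood apart over all genes. The chi-square per gene was 57.1 and 61.4 between vehicle replicate 2 and the other vehicle libraries, which differed by 10.4, and 73.7 and 67.0 between AOA replicate 1 and the other AOA libraries, which differed by 10.9. Among the AOA libraries, AOA replicate 1 had the lowest Il2ra, Il2rb, Il2rg, Il7r, Il4ra, Il12rb1 and Il12rb2 and the highest Il15ra and Il18r1. Vehicle replicate 2 had 53.4 CPM of Fcer1g and 111 CPM of Klrb1c, markers of myeloid and NK cells. The other vehicle libraries had at most 5.86 and 41.7 CPM, and without vehicle replicate 2 the log2 fold change of Fcer1g went from -3.63 to -1.28. Other markers of these lists were mixed. Ncr1 and Nkg7 were also highest in vehicle replicate 2, at 2.35 and 663 CPM, whereas Klrk1 was lowest there, at 83.7 CPM. Itgam was at 52.9 CPM there, against 42.8 and 40.5 CPM in vehicle replicates 1 and 3. Itgax was at 43.4 CPM, against 42.5 and 22.8 CPM, and Xcr1 and Cd14 also stood near vehicle replicate 1. Gzmb, the protease granzyme B, was at 4093 CPM in vehicle replicate 2 and at 1233 and 1569 CPM in vehicle replicates 1 and 3. The part of these differences in the receptor values of these libraries was not tested.

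Il18r1 (chromosome 1, 40465552 to 40500854) encodes the chain of the interleukin-18 receptor that binds the cytokine. It was at 471, 412 and 432 CPM with vehicle and at 214, 179 and 166 CPM with AOA. Replicates lay close together in both groups, and the 3 mice had log2 ratios of -1.13, -1.20 and -1.38. The fall was 2.35-fold (log2 fold change -1.23, standard error 0.15, adjusted p = 2.16e-04) and was called in all 13 alternative settings. Il18rap, the signalling partner of Il18r1, fell too, from 214 ± 19.5 to 99.1 ± 10.2 CPM (SD, n = 3; log2 fold change -1.11, standard error 0.14, adjusted p = 2.59e-04).

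Levels of different genes were compared only per length, as RPKM, which divides each CPM value by the deposited length of the gene in kilobases. With vehicle the order was Il2rb at 410 ± 84.2 RPKM (SD, n = 3), Il2rg at 379 ± 52.3, Il4ra at 192 ± 65.7, Il12rb2 at 165 ± 64.4, Il7r at 163 ± 26.9, Il2ra at 152 ± 43.9, Il18r1 at 91.7 ± 6.25, Il21r at 81.6 ± 13.7, Il12rb1 at 32.1 ± 10.3 and Il15ra at 6.89 ± 0.477 RPKM. The ranges of Il2rb and Il2rg overlapped, as did those of each neighbouring pair from Il4ra to Il2ra and those of Il18r1 and Il21r. The steps from Il2rg to Il4ra, from Il2ra to Il18r1, from Il21r to Il12rb1 and from Il12rb1 to Il15ra were wider than the spread of the libraries, whose ranges did not overlap there.

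With AOA the order became Il2rg at 420 ± 69.1 RPKM (SD, n = 3), Il2rb at 330 ± 105, Il2ra at 155 ± 64.7, Il4ra at 123 ± 22.6, Il21r at 111 ± 6.37, Il12rb2 at 41.9 ± 11.3, Il18r1 at 39.0 ± 5.27, Il12rb1 at 19.6 ± 3.44, Il7r at 7.39 ± 1.84 and Il15ra at 5.14 ± 0.791 RPKM. The ranges of Il2rg and Il2rb overlapped, as did those of Il2ra with Il4ra, of Il4ra with Il21r and of Il12rb2 with Il18r1. Il7r moved from the fifth place to the ninth and did not overlap its neighbours there, Il12rb1 above and Il15ra below, whereas with vehicle it had overlapped its neighbours Il12rb2 and Il2ra. Among all genes of the table, 96.9% had a lower RPKM than Il7r with vehicle and 42.0% with AOA.

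The 10 chains summed to 1674 ± 87.3 RPKM (SD, n = 3) with vehicle and 1253 ± 249 RPKM (SD, n = 3) with AOA, and every AOA library was below every vehicle library. Il7r made up 9.73% ± 1.46 of that sum with vehicle and 0.589% ± 0.0648 with AOA (SD, n = 3). Il12rb2 went from 9.98% ± 4.07 to 3.31% ± 0.271 and Il18r1 from 5.50% ± 0.673 to 3.24% ± 1.07. The share of Il2rg was 22.6% ± 2.11 with vehicle and 33.8% ± 3.48 with AOA, a larger share of a smaller sum. As shares of CPM, without division by length, these were 12.2% and 19.7%. These shares cannot move independently of each other, since they add up to the whole.

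**Figure D3:**
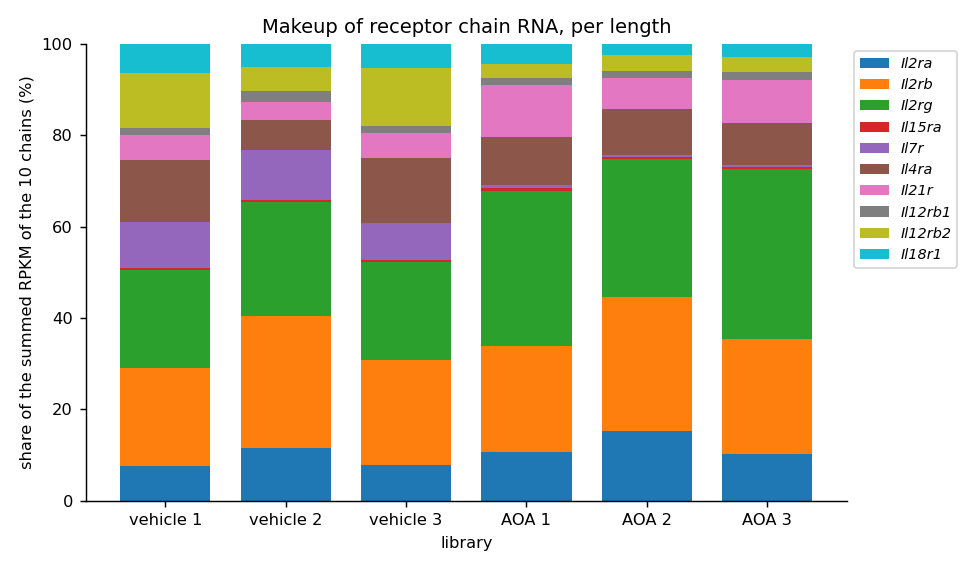
Share of the summed RPKM of the 10 chains (y axis, percent) held by each chain in every library (x axis), as stacked bars that start at 0 and reach 100%. The band of Il7r is between 8.11% and 10.9% in the vehicle libraries and between 0.515% and 0.633% in the AOA libraries.

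Ratios between chains of one receptor were compared for 8 pairs, and the ratio of Il2ra to Il7r for a ninth, on RPKM values by a two-sided exact permutation test. With 3 libraries against 3 that test cannot give a p below 0.1, which becomes 0.225 after adjustment over the 9 pairs, so none of these ratios could pass. For each RPKM of Il2rg there were 0.476, 0.437 and 0.379 RPKM of Il7r with vehicle and 0.0183, 0.0209 and 0.0138 with AOA. The ratio of the interleukin-7 receptor chain to its partner was lower with AOA in all 3 mice, with a log2 difference of -4.62. The ratio of Il2ra to Il7r was 0.755, 1.06 and 0.973 with vehicle and 17.4, 24.1 and 20.0 with AOA, a log2 difference of 4.46.

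Within the interleukin-2 receptor, the ratio of Il2ra to Il2rb was 0.356, 0.403 and 0.344 with vehicle and 0.464, 0.519 and 0.407 with AOA. It was higher with AOA in every mouse, by 0.33 on the log2 scale on average, and the groups did not overlap. The ratio of Il2rb to Il2rg was 1.01, 1.15 and 1.07 with vehicle and 0.684, 0.969 and 0.677 with AOA, a log2 difference of -0.49 that had the same sign in every mouse, again without overlap. These 4 ratios each had the smallest p of 0.1 by the exact permutation test. For the other 5 pairs the groups overlapped, with exact p from 0.2 to 0.9. Among them, Il12rb1 to Il12rb2 was 0.137, 0.477 and 0.123 with vehicle and 0.523, 0.388 and 0.527 with AOA, so that it was higher with AOA in mice 1 and 3 and lower in mouse 2.

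Sequence before the annotated starts was searched for letters that STAT factors are known to bind, TTCNNNGAA, which reads the same on both strands, and for the forkhead letters GTAAACA on either strand. RefSeq promoter windows of GRCm38.p6, with 250 bases before and 50 after a start, were matched to 8 of the 10 members in 11 windows, and Il2rb and Il12rb1 had no entry. The STAT letters were found in 3 of the 11 windows, 1 each of Il7r, Il12rb2 and Il18r1, while 8.30% of all 32851 windows held them. The other 2 windows of Il18r1 held none. The forkhead letters were found in the window of Il21r alone, as TGTTTAC starting 38 bases before the start, while 3.65% of all windows held them, and no match of one overlapped a match of the other in these genes. The 3 stretches with STAT letters are shown because they lie before an annotated start of the 3 chains that fell most, limited to bases outside annotated exons, with the STAT letters in capitals and each strand read 5′ to 3′ along its gene. The stretch of Il7r is on the minus strand at chr15:9529942-9530040, that of Il12rb2 on the minus strand at chr6:67376294-67376438, and that of Il18r1 on the plus strand at chr1:40465811-40465969, before the most downstream of its 3 annotated starts and so inside the gene.
Il7r: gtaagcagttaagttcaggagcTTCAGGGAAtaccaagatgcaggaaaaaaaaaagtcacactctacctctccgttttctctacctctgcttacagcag
Il12rb2: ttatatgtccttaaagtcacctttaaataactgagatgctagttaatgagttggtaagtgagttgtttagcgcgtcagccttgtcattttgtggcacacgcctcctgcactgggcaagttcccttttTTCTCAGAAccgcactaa
Il18r1: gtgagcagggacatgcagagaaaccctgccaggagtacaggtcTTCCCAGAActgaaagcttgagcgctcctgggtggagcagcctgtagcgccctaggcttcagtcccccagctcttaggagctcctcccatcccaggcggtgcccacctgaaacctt
Counted from the annotated transcript start that each RefSeq window was built on (9529876 for Il7r, 67376188 for Il12rb2 and 40466006 for Il18r1), the matches began 142 bases before the start for Il7r, 123 for Il12rb2 and 152 for Il18r1, whose window held a second match, TTCTGGGAA, 219 bases before the start. Those starts of Il7r and Il12rb2 lie inside the gene coordinates given above, whose ends the matches precede by 77 and 18 bases. A match is a description of the letters and not of binding, and binding was not measured.

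Among the ligands of these receptors, 2 of 12 listed genes had a row, and no row was found for Il2, Il4, Il7 or Il21. Il15 was too low to test, between 0.0634 and 0.598 CPM in every library. Il18 was at 0.635, 2.60 and 1.79 CPM with vehicle and 0.322, 0.158 and 0.403 CPM with AOA, and was called lower (log2 fold change -2.49, standard error 0.58, adjusted p = 0.00577).

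Of 16 other interleukin receptor chains tested, 8 fell and 2 rose, with a median log2 fold change of -0.78. The largest falls were those of Il1r2, a decoy receptor for interleukin-1 (-4.35), Il17rd (-2.07) and Il11ra1 (-1.85), at 4.91, 7.44 and 5.62 CPM with vehicle. Il1r2 had only 3, 10 and 1 counts in AOA libraries 1, 2 and 3, so the size of its fall is uncertain (standard error 0.62). Il10ra, the ligand-binding chain of the interleukin-10 receptor, fell from 159 ± 23.6 to 78.7 ± 7.09 CPM (SD, n = 3; log2 fold change -1.01, adjusted p = 5.39e-04). Il6ra, which binds interleukin-6, rose from 14.7 ± 7.74 to 32.2 ± 5.74 CPM (SD, n = 3; 1.12, adjusted p = 0.0207), and Il1rap, the partner chain of the interleukin-1 receptor, rose by 0.47 (adjusted p = 0.0425). Neither rise was firm. Il6ra lost its call without vehicle replicate 1 or any single AOA library (0.98 to 1.22, adjusted p from 0.0515 to 0.0805). Il1rap lost it with the mouse as a block (0.47, adjusted p = 0.0536) and without any single library other than AOA replicate 2 (0.38 to 0.55, adjusted p from 0.0531 to 0.181). So 1 chain was called higher with the block, and 0 without vehicle replicate 1, AOA replicate 1 or AOA replicate 3. With at least 10 CPM in 3 libraries, 4 were called lower. Some falls were not firm either. Crlf2 lost its call by limma, with no filter, and without any single library other than vehicle replicate 2 (-0.65 to -0.38, adjusted p from 0.0514 to 0.201). Il1rl2 lost it without vehicle replicate 1 or AOA replicate 3 (adjusted p = 0.0751 and 0.0783). With each library left out, 6 to 11 chains were called lower.

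Downstream of the receptors, 13 of 20 kinases, STATs and adapters fell and 0 rose by edgeR, with a median of -0.68. At an unadjusted p under 0.05, and by DESeq2 and limma, the count of risen genes was also 0. The common gamma chain signals through Jak3, which fell from 289 ± 73.4 to 100.0 ± 8.70 CPM (SD, n = 3; -1.53, adjusted p = 2.75e-04). Jak1, which pairs with Il2rb, Il7r, Il4ra and Il21r, fell from 2028 ± 395 to 711 ± 88.1 CPM (-1.51, adjusted p = 3.24e-04), and Jak2 and Tyk2, the kinases of the interleukin-12 receptor, changed by -1.26 and -0.95. Irak2, a kinase of the interleukin-1 and interleukin-18 pathways, fell most (-2.73). Stat4, the main STAT of interleukin-12, and Stat5b fell (-1.08 and -0.59), although Stat4 lost its call without AOA replicate 1 (-0.97, adjusted p = 0.0539) and Stat5b without vehicle replicate 1, vehicle replicate 3 or AOA replicate 1 (adjusted p from 0.0630 to 0.105), while Stat5a stood at 57.3 CPM in both groups (log2 fold change 0.00, standard error 0.14, adjusted p = 0.997). Myd88, Irak4, Traf6, Shc1, Grb2 and Gab2 were not called.

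Of 20 feedback inhibitors and decoys, 7 rose and 4 fell, with a median of 0.07. Cish, a STAT5-induced inhibitor of interleukin-2 signalling, was at 47.3, 118 and 57.6 CPM with vehicle and at 166, 171 and 178 CPM with AOA (1.21, standard error 0.30, adjusted p = 0.00739). The phosphatases Ptpn1 and Ptpn6 rose by 0.86 and 0.77, and Il18bp, the secreted decoy for interleukin-18, by 0.76. Irak3, which restrains interleukin-1 and interleukin-18 signals, fell (-2.23), as did Socs3 (-0.94) and Sigirr (-0.93). Without vehicle replicate 1 the count of risen genes was 4. Il18bp lost its call without any single library other than vehicle replicate 2 (0.63 to 0.82, adjusted p from 0.0563 to 0.0987), and Socs3 without AOA replicate 1 (-0.89, adjusted p = 0.0556).

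Of 16 genes known to respond to interleukin-2 and STAT5, 7 rose and 5 fell, with a median of 0.14, so the list had no common direction. With the mouse as a block, 7 rose and 6 fell. Osm and Lta, which encode secreted cytokines, rose by 2.36 and 2.31. Bcl2, which protects cells from death and is also known as a target of interleukin-7 signals, rose from 297 ± 92.9 to 568 ± 7.82 CPM (SD, n = 3; 0.93, adjusted p = 0.00561) in the cultures in which Il7r was low. Prf1, encoding the pore-forming protein perforin (-3.15), Prdm1, encoding the regulator Blimp-1 (-2.31), and Tnfrsf4 (-1.18) fell. Prf1 was highest in vehicle replicate 2, at 227 CPM against 47.9 and 44.6 CPM in the other vehicle libraries, and its log2 fold change without that library was -1.91.

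Of 16 transcription factors known to act on the receptor genes, 8 fell and 0 rose by edgeR, with a median of -0.59, and 0 rose at an unadjusted p under 0.05, by DESeq2 or by limma. The count of fallen genes was 10 by DESeq2, 9 by limma and 10 with the mouse as a block. Gfi1, a known repressor of Il7r, fell from 115 ± 14.6 to 23.9 ± 4.54 CPM (SD, n = 3; -2.27, adjusted p = 2.28e-05), alongside the fall of Il7r itself. Foxo1, a known activator of Il7r, was at 228 ± 63.1 CPM with vehicle and 171 ± 36.8 CPM with AOA and was not called (-0.42, adjusted p = 0.163). Gabpa, which also acts on Il7r, was not called (-0.22, adjusted p = 0.176). Runx3 fell (-1.29), and so did Tbx21 (-0.74), which encodes the T-bet factor that acts on the interleukin-12 and interleukin-18 receptor genes. Eomes, its relative, was not called (0.04, adjusted p = 0.895). Next to 26.2% higher and 26.8% lower among all tested genes, these lists were counted without a test of the list, and some genes stand in more than 1 of them.

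**Figure D4:**
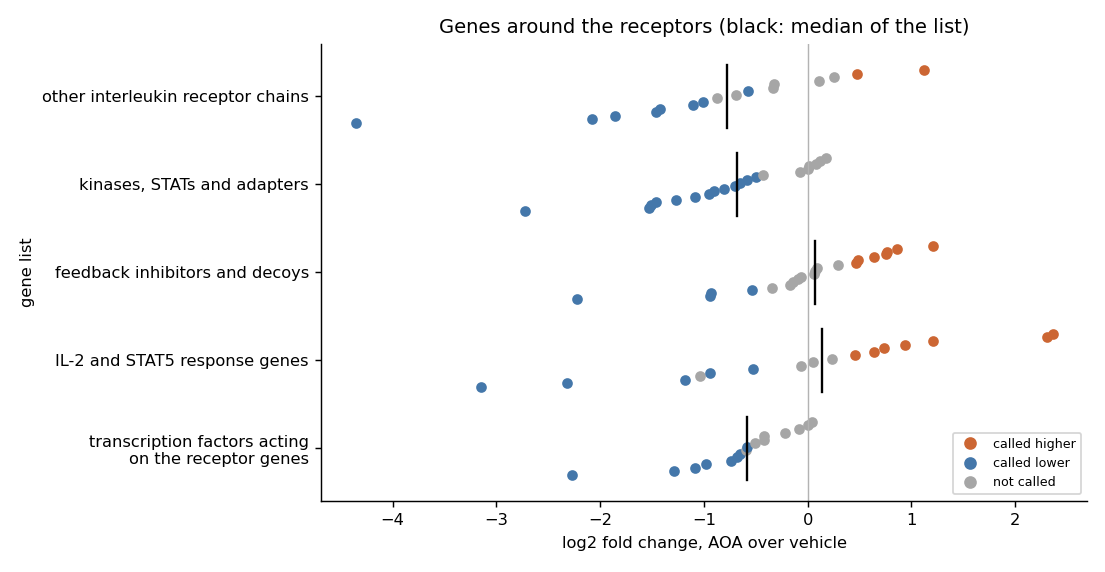
Log2 fold change (AOA over vehicle, x axis) of every tested gene in 5 lists (y axis), coloured by call, with a black bar at the median of each list. No kinase, STAT, adapter or transcription factor of the lists is called higher, while the inhibitors and the interleukin-2 response genes lie on both sides of 0.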

How the data were processed

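RNA of mouse CD8+ T cells was sequenced from stranded messenger RNA libraries as paired-end reads. Reads were aligned by the authors with STAR (default settings), and those mapping to 1 place were counted per gene. The deposited values are these raw counts, with a length per gene. The processing notes of the submitters also name mm10, featureCounts and DESeq2, without versions. The annotation, strand setting and any filter of the table were not given in the sources used here. Genes were matched by Entrez number, and 1 row without a symbol held 2.04e-04% of the counts.

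Groups were compared on the counts by edgeR 4.0.16 under R 4.3.3 (filterByExpr with a minimum count of 10, TMM, robust quasi-likelihood test, Benjamini-Hochberg adjustment over 11759 genes, threshold 0.05). Standard errors were taken from the fold change and its F statistic, and intervals cover 95%. Alternatives were a replicate block for the mouse, each library left out, scaling by total counts or by median-of-ratios size factors, a stricter filter (10 CPM or more in 3 libraries) or none, limma 3.58.1 with voom, and DESeq2 1.42.0. The steps were tested on simulated data.

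The labels give each sample a mouse donor number, and donors 1, 2 and 3 stand in both groups, so the samples are paired by animal. The main edgeR fit and the permutation test of the ratios did not use this pairing. It entered only through the replicate block and the values given within mice. Deviations from the group means correlated within mice with r of 0.0641, 0.171 and 0.195 across genes, which are not independent replicates. Replicates differed beyond sampling noise (chi-square per gene 10.4 to 73.7). Each mouse gave 1 culture per group, so the spread covers mice and cultures together.

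Members and lists were chosen with earlier results of these data known. All 10 members are named, with up to 3 called genes per direction of each list, and others named here were chosen after their values were seen. Coordinates and promoter sequences are those of RefSeq GRCm38.p6, and exons those of GENCODE vM21. Protein sequences were not used here.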

Additional observations from a re-analysis of the deposited data

How the results depend on the processing

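With 13 alternatives per receptor chain, Il7r, Il12rb2, Il18r1, Il2rb and Il2rg kept their direction and their side of the threshold in every one, at log2 fold changes of -4.68 to -4.30, -2.23 to -1.72, -1.34 to -1.15, -0.58 to -0.11 and 0.08 to 0.30. Il2ra, near 0, changed sign with limma-voom (-0.0075, adjusted p = 0.986), under the stricter filter of 10 CPM (-0.011, adjusted p = 0.980) and under the replicate block (-0.014, adjusted p = 0.955). Leaving out each library in turn gave it -0.36 to 0.32. The replicate block changed no call of the 10 chains (Il7r -4.48, Il21r 0.46 and Il12rb1 -0.68 with it) and gave 3126 genes higher and 3166 lower over all genes. DESeq2 called Il4ra (-0.63, adjusted p = 0.0257). With each library left out, the log2 fold changes ranged over -0.55 to -0.33 for Il15ra, -0.86 to -0.40 for Il4ra, 0.36 to 0.58 for Il21r and -0.82 to -0.38 for Il12rb1, and 0 to 1 chains were called higher and 3 to 4 lower. As shares of CPM instead of RPKM, Il2rg made up 12.2% with vehicle and 19.7% with AOA, and Il7r 0.659% with AOA. Of 80 places in the order of levels 10 moved, and of 156 counts over the gene lists 10 differed by more than 1.5 times, while smaller changes were not counted. The cause of these changes was not tested, although leaving out a library leaves fewer samples. Depth limits Il15ra most, with 181 to 265 counts per library.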
